A study of Mus musculus with 18 samples.

Results

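The secreted Wnt antagonists are a set of 9 genes, Sfrp1, Sfrp2, Sfrp4, Sfrp5, Frzb, Wif1, Dkk2, Dkk3 and Dkk4, taken by symbol from the 49671 gene identifiers of the count table, and all 9 were found. Poly(A) RNA was sequenced from mouse embryonic stem (ES) cells grown in three-dimensional Matrigel culture, in 6 groups of 3 samples. Wild-type E14 cells (passage 20) were kept for 48 h in N2B27 medium with the solvent DMSO, with 3 µM of the Gsk3 inhibitor CHIR99021 (CH), with 3 µM CHIR99021 plus 0.4 µM of the Mek inhibitor PD0325901 (2i), or with 12 ng/ml Fgf2 plus 20 ng/ml Activin A (Fgf2/Activin). A separate Esrrb fl/fl ES cell line (passage 25) with a tamoxifen-inducible Cre (MerCreMer) was cultured for 24 h, and both of its groups received 3 µM CHIR99021: the Esrrb floxed control, and Esrrb null cells exposed to 4-hydroxytamoxifen (4OHT) for a day before the 3D culture. The strain label of this line names Acr-EGFP transgenic mice. Cell line, passage and culture time all differ between the wild-type and the Esrrb groups and cannot be told apart, so tests were made within each line only.

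Wnt proteins bind Frizzled receptors and the co-receptors Lrp5 and Lrp6, which spares β-catenin from Gsk3-dependent destruction, and Gsk3 inhibition does the same inside the cell without a ligand. The secreted antagonists act outside the cell, upstream of that step. The Sfrp proteins and Frzb (also called Sfrp3) carry a Frizzled-like cysteine-rich domain and bind Wnt ligands, and Wif1 binds Wnts through a domain of its own. Dkk2 and Dkk4 are Dickkopf proteins that bind Lrp5 and Lrp6, and Dkk3 is a divergent member of that family.

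Levels are CPM, a gene's counts relative to a library's total, scaled by edgeR's TMM factors over all 18 samples, and per-sample values are given in the order replicate 1, 2, 3. The summed counts were between 25388139 and 37158661 in the wild-type samples and between 19915222 and 20140699 in the Esrrb samples, so the floor of 3 counts in a library lay between 0.0803 and 0.161 CPM. All 6 pluripotency markers (Pou5f1, Sox2, Nanog, Zfp42, Dppa5a and Utf1) were at or above 1 CPM on average in every group. Their summed level differed between groups. It was 1570 to 1640 CPM in DMSO, 2030 to 2180 in Fgf2/Activin, 2580 to 2960 in CH and 3610 to 4010 in 2i. In the Esrrb line it was 3010 to 3220 CPM in floxed and 1680 to 1950 in null. Esrrb, the deleted nuclear receptor, was at 58.1, 62.7 and 58.7 CPM in the Esrrb null samples and at 143.7, 111.2 and 109.9 CPM in the floxed samples (log2 fold change -0.99, SE 0.10, edgeR quasi-likelihood test, adjusted p = 7.44e-05). Replicate 1 stood apart from replicates 2 and 3 in each of the 6 groups. In the wild-type groups the chi-square per gene between samples of a group was 27.0 to 59.7 for pairs with replicate 1 and 2.68 to 7.84 between replicates 2 and 3, and in the Esrrb groups it was 10.8 to 14.0 and 1.42 to 2.1. Each comparison was therefore also fitted without replicate 1 in all groups, an alternative chosen after seeing the data. The Esrrb values are counts over the whole gene, and which bases were deleted is not given in the sources used here. In bulk samples, fewer cells expressing a gene and less RNA per cell cannot be told apart.

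Sfrp2 and Sfrp5 were the members that stood lower with CHIR99021 than without it in the wild-type cells. Their promoters, the 250 bases before the annotated start (RefSeq, GRCm38.p6), are shown for their base composition, with each CG dinucleotide in capitals and each sequence in the direction of the gene. That of Sfrp2 lies on the plus strand at chr3:83766071-83766320, and that of Sfrp5 on the minus strand at chr19:42202253-42202502.
Sfrp2: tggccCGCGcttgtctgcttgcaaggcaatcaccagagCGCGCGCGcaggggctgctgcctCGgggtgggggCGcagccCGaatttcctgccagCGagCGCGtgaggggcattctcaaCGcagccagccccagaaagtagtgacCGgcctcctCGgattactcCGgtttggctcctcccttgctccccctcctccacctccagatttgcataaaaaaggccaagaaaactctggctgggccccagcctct
Sfrp5: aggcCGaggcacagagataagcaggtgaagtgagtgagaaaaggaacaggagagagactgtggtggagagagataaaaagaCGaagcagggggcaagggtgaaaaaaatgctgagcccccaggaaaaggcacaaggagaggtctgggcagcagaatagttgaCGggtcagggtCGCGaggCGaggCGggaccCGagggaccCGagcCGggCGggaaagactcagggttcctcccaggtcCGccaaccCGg
The Sfrp2 promoter held 16 CG dinucleotides at 63.6% G+C, and the Sfrp5 promoter 13 at 59.6% G+C. The medians were 6 and 52.4% over the 32851 promoters searched, which leave out a chromosome that holds no member. The promoters of Frzb, Wif1 and Dkk2, which were barely counted in any sample, had 16, 21 and 7 CG dinucleotides. A letter search on both strands for CTTTGAT and CTTTGAA, cores bound by Tcf/Lef factors, and for AAGGTCA, the core bound by Esrrb, found no match in the promoters of Sfrp2, Sfrp5, Frzb, Wif1 or Dkk2. Those letters occurred in 3.21%, 4.46% and 4.08% of the 32851 promoters searched. The motifs were chosen after the expression values had been seen, and the search covers only these letters in this window.

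The 9 genes fell into levels far apart. Per kilobase of exon, the only scale on which genes were compared with each other, Sfrp2 led in DMSO (16.0 ± 1.50 CPM per kb, mean ± SD, n = 3) and in Fgf2/Activin (15.5 ± 0.241). In 2i, Sfrp1 led with 20.8 ± 5.79 CPM per kb, and Sfrp2 was at 5.14 ± 0.297. In CH the leading genes lay close together, with Sfrp2 at 5.84 ± 0.523, Sfrp1 at 5.21 ± 2.23 and Dkk3 at 3.49 ± 0.921 CPM per kb. The level of Sfrp1 over that of Sfrp2, per kb, was between 0.190 and 0.207 in the DMSO samples and between 0.123 and 0.151 in the Fgf2/Activin samples. It was between 0.439 and 1.35 in CH and between 2.65 and 5.08 in 2i, so the 4 wild-type groups did not overlap in this ratio. In the Esrrb floxed samples it was between 3.51 and 7.43, and in the Esrrb null samples between 1.61 and 3.23. The summed level of all 9 genes per kb varied less, from 11.6 ± 0.896 in Esrrb null to 31.7 ± 4.82 in 2i, with 21.4 ± 2.05 in DMSO and 16.4 ± 0.625 in CH.

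**Figure D1:**
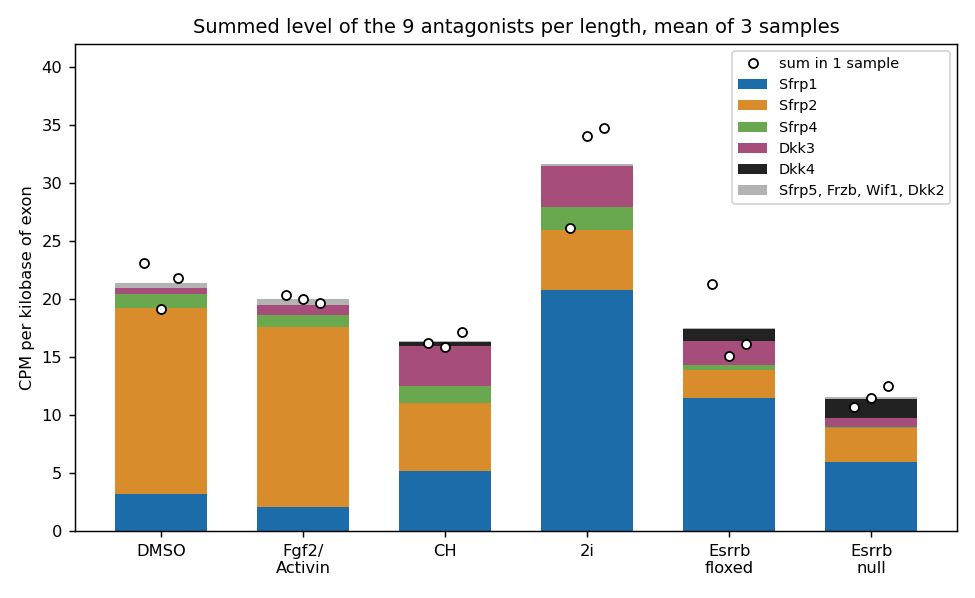
Mean level per kilobase of exon (CPM per kb, linear axis from 0) of the antagonists, stacked by gene, in the 6 groups, with open circles for the sum in each of the 3 samples of a group. The largest share of the bar is Sfrp2 in DMSO and Fgf2/Activin (16.0 and 15.5 CPM per kb) and Sfrp1 in 2i (20.8 CPM per kb).

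Sfrp1 (ENSMUSG00000031548, chr8:23411502-23449632, plus strand), a Wnt-binding Sfrp, was at 15.8, 12.0 and 14.3 CPM in DMSO and at 12.2, 24.7 and 31.4 CPM in CH. Replicate 1 of CH lay inside the DMSO range and the other two CH samples above it. In 2i it was at 61.7, 106.4 and 104.7 CPM, above every other wild-type sample. In Fgf2/Activin it was at 10.3, 8.46 and 8.66 CPM, below every DMSO sample. In the Esrrb floxed cells it was at 69.6, 39.4 and 41.6 CPM, and in Esrrb null at 28.3, 24.7 and 25.3 CPM, with no overlap.

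Sfrp2 (ENSMUSG00000027996, chr3:83766321-83774316, plus strand), also a Wnt-binding Sfrp, varied less between replicates than Sfrp1, Sfrp4 or Dkk3 in each wild-type group, with a CV of 1.56% to 9.35%. It was at 37.6, 31.2 and 34.9 CPM in DMSO and at 33.5, 33.9 and 32.8 CPM in Fgf2/Activin, ranges that overlap. In CH it was at 13.7, 12.5 and 11.5 CPM and in 2i at 11.5, 10.3 and 11.4 CPM, all below the DMSO and Fgf2/Activin samples. The Esrrb floxed samples held 4.61, 5.18 and 5.84 CPM and the Esrrb null samples 4.32, 6.92 and 7.74 CPM, which overlap. Of the Sfrp2 exon bases, 16.1% are also exonic in Gm26771 on the opposite strand (chr3:83773853-83789956). Reads were counted without strand, so reads of the pair cannot be told apart there. Gm26771 itself had 11 to 24 counts in the DMSO samples and 2 to 8 in CH, against 902 to 1405 and 287 to 403 for Sfrp2.

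Sfrp4 (ENSMUSG00000021319, chr13:19623104-19632994, plus strand), a further Wnt-binding Sfrp, was at 4.26, 5.07 and 5.68 CPM in DMSO and at 4.41, 4.74 and 4.31 CPM in Fgf2/Activin. It was at 7.19, 5.03 and 5.88 CPM in CH and at 9.68, 7.34 and 8.31 CPM in 2i. The 2i samples stood above all other wild-type samples, and the other 3 wild-type groups overlapped in order. In the Esrrb line it was at 2.20, 2.33 and 1.51 CPM in the floxed samples and at 0.480, 0.329 and 0.516 CPM in the null samples, which had 7 to 11 counts each.

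Dkk3 (ENSMUSG00000030772, chr7:112116017-112159057, minus strand), the divergent Dickkopf, was at 2.68, 1.50 and 1.31 CPM in DMSO and at 3.35, 2.34 and 2.37 CPM in Fgf2/Activin. In CH it was at 15.3, 9.67 and 10.2 CPM and in 2i at 14.1, 10.4 and 11.1 CPM, overlapping with each other and far above the groups without CHIR99021. It was at 6.59, 6.89 and 7.35 CPM in Esrrb floxed and at 2.16, 2.49 and 2.82 CPM in Esrrb null. Replicate 1 was the highest of its group in each of the 4 wild-type groups.

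Dkk4 (ENSMUSG00000031535, chr8:22624043-22627547, plus strand), an Lrp5/6-binding Dickkopf known as a target gene of Wnt signalling in other tissues, had no counts in any DMSO or Fgf2/Activin sample. It had 28, 10 and 5 counts in CH (0.953, 0.327 and 0.200 CPM) and 2, 1 and 1 counts in 2i. In the Esrrb line it was at 0.911, 1.35 and 1.77 CPM in the floxed samples (17 to 34 counts) and at 1.78, 2.21 and 2.67 CPM in the null samples (37 to 57 counts). The lowest null sample lay just above the highest floxed sample.

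Sfrp5 (ENSMUSG00000018822, chr19:42197971-42202252, minus strand), a Wnt-binding Sfrp, had 15, 12 and 19 counts in DMSO and 16, 25 and 24 in Fgf2/Activin. It had 2, 5 and 0 counts in CH and 2, 3 and 8 in 2i, and 1 to 3 counts in the 6 Esrrb samples. Frzb (chr2:80411970-80447625) ranged from 0 to 14 counts over the 18 samples, Wif1 (chr10:121033960-121100650) from 0 to 8, and Dkk2 (chr3:132085292-132180304) from 0 to 5. The highest Frzb counts were 14 in DMSO replicate 3 and 10 in Fgf2/Activin replicate 3. At this depth no difference between conditions could be shown for Frzb, Wif1 or Dkk2: without the low-count filter, their edgeR adjusted p ranged from 0.0534 (Dkk2, 2i versus Fgf2/Activin) upward.

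**Figure D2:**
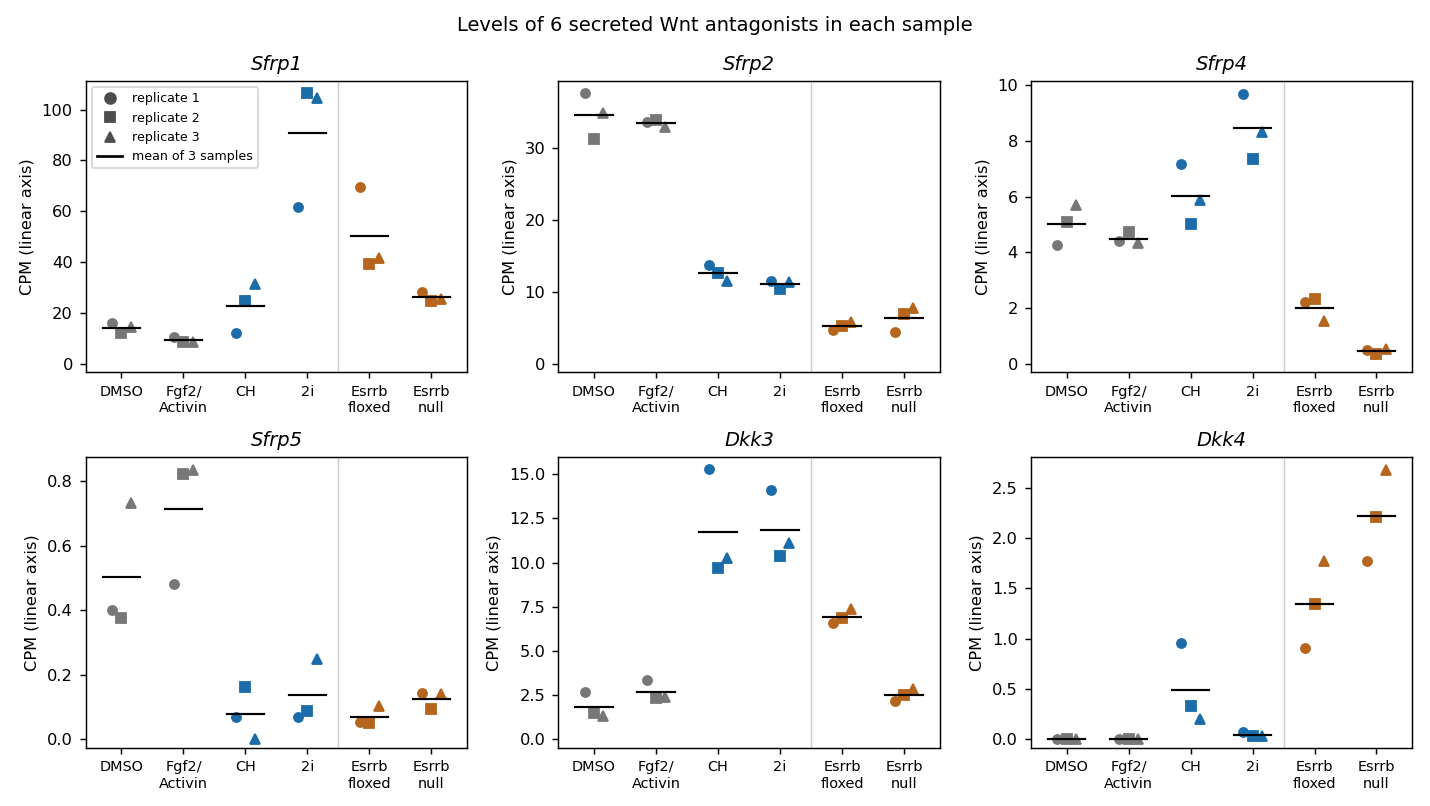
CPM (linear axis, from 0) of Sfrp1, Sfrp2, Sfrp4, Sfrp5, Dkk3 and Dkk4 in each of the 18 samples, with marker shapes for replicates 1 to 3, a black line at the mean of 3 samples and a grey line between the wild-type and the Esrrb groups. Sfrp2 stood at 31.2 to 37.6 CPM in DMSO and 11.5 to 13.7 CPM in CH, while Dkk3 stood at 1.31 to 2.68 and 9.67 to 15.3 CPM.

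A gene was called changed at an adjusted p under 0.01 (edgeR quasi-likelihood test, Benjamini-Hochberg over all genes tested) with an absolute log2 fold change above 1. In the wild-type fit Sfrp1, Sfrp2, Sfrp4, Sfrp5 and Dkk3 passed the filter on low counts, and in the Esrrb fit Sfrp1, Sfrp2, Sfrp4, Dkk3 and Dkk4 did. The comparisons among wild-type groups share samples, so their values are set side by side and not correlated.

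The comparison of CH with DMSO asks what Gsk3 inhibition changed. Dkk3 rose 6.35-fold (log2 fold change 2.67, SE 0.30, edgeR adjusted p = 4.18e-05) and Sfrp2 fell 2.74-fold (-1.45, SE 0.10, edgeR adjusted p = 1.49e-06). Thus 2 of the 5 tested members were called, 1 in each direction, where 17.7% of all 16413 genes tested were called, 7.51% higher and 10.2% lower. The median of the 5 log2 fold changes was 0.28, against -0.002 over all genes tested. Dkk4 did not enter this fit. Its mean level in CH, 0.493 ± 0.403 CPM (SD, n = 3), was at least 4.26-fold higher than the highest floor of 3 counts per library in DMSO (0.116 CPM), and without CH replicate 1 at least 2.27-fold higher. Without the filter on low counts Dkk4 was called higher (edgeR adjusted p = 0.00113). It was also called where leaving out DMSO replicate 3 or CH replicate 3 let it pass the filter (edgeR adjusted p = 0.00921 and 0.00385). There it could pass only through its CH counts, so those fits add no separate support. Sfrp5 lay lower in every CH sample than in any DMSO sample (-2.55, SE 0.69, edgeR adjusted p = 0.0115) and missed the call. In a fit blocked on the replicate number Sfrp5 was called (-2.52, edgeR adjusted p = 0.00464), and it also was without CH replicate 2 (-3.62, adjusted p = 0.00903). DESeq2's test of no change called it too (-2.63, DESeq2 adjusted p = 0.0036). The DESeq2 test against a log2 fold change of 1 did not (adjusted p = 0.35). Sfrp5 passed the filter only through its DMSO and Fgf2/Activin counts, so the fits that called it add no separate support. Without that filter it was not called (-2.53, SE 0.67, edgeR adjusted p = 0.0105). For Sfrp1 the log2 fold change was 0.70 (SE 0.30, edgeR adjusted p = 0.0842), with a ratio of -0.37 on the log2 scale between the samples numbered 1, and of 1.04 and 1.14 between those numbered 2 and 3. Leaving out 1 sample moved it between 0.41 (without CH replicate 3, adjusted p = 0.309) and 1.00 (without CH replicate 1, adjusted p = 0.00509), and only the latter passed both thresholds. Without replicate 1 in every group, 4 members were called in place of 2, the added ones being Sfrp1 (1.10, SE 0.11, edgeR adjusted p = 4.56e-07) and Sfrp5 (-2.53, adjusted p = 0.00834). With the replicate number as a block, which keeps all samples, Sfrp1 was not called (0.63, SE 0.27, edgeR adjusted p = 0.0667). Sfrp4 was not called (0.27, SE 0.18, edgeR adjusted p = 0.243).

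The comparison of 2i with CH gives what Mek inhibition changed on top of Gsk3 inhibition. Sfrp1 rose 4.00-fold (log2 fold change 2.00, SE 0.31, edgeR adjusted p = 0.00273), with ratios of 2.34, 2.11 and 1.74 on the log2 scale between samples of the same number. It was the 1 member called of 5 tested, where 1.99% of all genes were called, 0.317% higher and 1.67% lower. The median over the 5 members was 0.48, against -0.003 over all genes tested. This call was lost, at a similar size, without CH replicate 2 (2.06, adjusted p = 0.0142), without 2i replicate 2 (1.88, 0.0144), without 2i replicate 3 (1.89, 0.0143) and with only the 6 samples compared in the fit (1.99, 0.0323). It was kept without replicate 1 in every group (1.92, SE 0.09, edgeR adjusted p = 3.57e-09). Dkk3 differed by 0.01 (SE 0.27, edgeR adjusted p = 0.99) and Sfrp2 by -0.19 (SE 0.10, adjusted p = 0.362). Sfrp4 was above CH in every 2i sample, with a log2 difference of 0.48 (SE 0.18, edgeR adjusted p = 0.147), and was not called. Dkk4 was lower in every 2i sample than in any CH sample, and with no filter on low counts its edgeR adjusted p was 0.0373, which misses the call.

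Markers of other cell types moved between these groups. The summed level of 6 mesendoderm markers was 10.3 to 14.7 CPM in DMSO, 13 to 18.8 in Fgf2/Activin, 441 to 673 in CH and 83.9 to 119 in 2i, with 1, 2, 4 and 2 of the 6 at or above 1 CPM. The 6 trophoblast markers summed to 11.2 to 32.7 CPM in DMSO, 8.28 to 12.4 in Fgf2/Activin, 70.2 to 119 in CH and 32.7 to 58.4 in 2i, with 2, 2, 3 and 3 of them at or above 1 CPM. Both sums were thus higher in CH than in DMSO and lower in 2i than in CH, as the Dkk4 counts were. Much of the trophoblast sum in CH was Cdx2, at 63.7 ± 24.7 CPM in CH and 10.1 ± 2.83 CPM in 2i. Cdx2 is also among the common Wnt target genes followed below, so that sum is not a marker of trophoblast alone. The 6 fibroblast or feeder markers summed to 16.9 to 50.5 CPM in DMSO, 14.4 to 27.8 in Fgf2/Activin, 5.52 to 7.74 in CH and 2.41 to 2.57 in 2i, with 2, 3, 2 and 1 at or above 1 CPM. The 8 primitive or visceral endoderm markers summed to 9.72 to 11.6, 6.76 to 7.51, 3.52 to 4.43 and 1.88 to 2.16 CPM in the same order, with 3, 2, 1 and 0 at or above 1 CPM. The 6 neural markers summed to 29.5 to 106, 49.6 to 66.9, 5.52 to 23.7 and 9.72 to 40.7 CPM, with 2, 1, 2 and 2 at or above 1 CPM. The fibroblast and endoderm sums of CH and 2i lay below those of DMSO and Fgf2/Activin, and the neural sum of CH did too, as Sfrp2 did. Among these markers Postn had no counts in DMSO, Fgf2/Activin and 2i, Lum none in DMSO, and Olig2 none in CH and 2i. The part of these cells in the values of the antagonists was not tested.

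The comparison of 2i with Fgf2/Activin is between media that differ in both inhibitors and both ligands, whose parts cannot be told apart. Of the 5 tested members 4 were called, 2 in each direction, where 23.5% of all genes were called, 9.13% higher and 14.4% lower. Sfrp1 rose 9.98-fold (log2 fold change 3.32, SE 0.32, edgeR adjusted p = 9.45e-06) and Dkk3 rose 4.42-fold (2.14, SE 0.29, adjusted p = 0.000108). Sfrp2 fell 3.01-fold (-1.59, SE 0.10, edgeR adjusted p = 4.31e-07), and Sfrp5 fell by 2.34 on the log2 scale (SE 0.60, adjusted p = 0.00725). The Sfrp5 call rested on 65 counts in Fgf2/Activin and 13 in 2i, summed over 3 samples. It was lost without Fgf2/Activin replicate 2 or 3 and without 2i replicate 1 or 2 (edgeR adjusted p from 0.0254 to 0.0349). Sfrp5 passed the filter on low counts only through the Fgf2/Activin and DMSO samples. Its place among the members tested and called therefore rests on the groups where it was high. Without that filter it was also called lower (-2.33, SE 0.58, edgeR adjusted p = 0.00597). Sfrp4 stood higher in every 2i sample but under the fold minimum (0.91, SE 0.18, edgeR adjusted p = 0.00138); without 2i replicate 2 it was called (1.01, adjusted p = 0.00229). The median over the 5 members was 0.91, against 0.002 over all genes tested.

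Fgf2/Activin was also compared with DMSO, and 0 of the 5 tested members were called by edgeR, where 1.25% of all genes were, 0.902% higher and 0.347% lower. DESeq2 called 0 as well, and 0 had an unadjusted edgeR p under 0.05. Sfrp1 (log2 fold change -0.62, SE 0.31, edgeR adjusted p = 0.35) was lower in each Fgf2/Activin sample than in any DMSO sample. Dkk3 differed by 0.54 (SE 0.30, edgeR adjusted p = 0.411) and Sfrp2 by -0.05 (SE 0.10, adjusted p = 0.871). The median over the 5 members was -0.05, against -0.02 over all genes tested. Without replicate 1 in every group 0 members were called as well. Sfrp1 (-0.61, edgeR adjusted p = 0.00233) and Dkk3 (0.73, edgeR adjusted p = 0.00951) then missed only the fold minimum.

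The last comparison sets Esrrb null against floxed cells while Gsk3 stayed inhibited. The null cells also differed in 4OHT exposure and Cre induction. No group had 4OHT without the deletion, so effects of 4OHT, Cre and Esrrb loss cannot be told apart. Sfrp4 fell 4.39-fold (log2 fold change -2.14, SE 0.29, edgeR adjusted p = 0.000301) and Dkk3 fell 2.71-fold (-1.44, SE 0.15, edgeR adjusted p = 8.41e-05). These were 2 of 5 tested members, both lower, where 16.7% of all 14893 genes tested were called, 12.8% higher and 3.87% lower. Sfrp4 had 29 to 45 counts in the floxed samples and passed the filter on low counts only through them. Its place among the members tested and called therefore rests on the group where it was high. Without that filter it was also called lower (-2.14, SE 0.30, edgeR adjusted p = 3.56e-05). The median over the 5 members was -0.91, against 0.002 over all genes tested. Sfrp1 was lower in every null sample at -0.91 (SE 0.20, edgeR adjusted p = 0.00434), under the fold minimum, and leaving out 1 sample moved it between -0.60 and -1.06. It was called without floxed replicate 2 (-1.06) or 3 (-1.03), was -0.60 (adjusted p = 0.000448) without floxed replicate 1 and -0.66 without replicate 1 of both groups, and missed the adjusted p as well without null replicate 2 or 3 (0.017 and 0.0184). Dkk4 was higher in every null sample at 0.76 (SE 0.28, edgeR adjusted p = 0.0409), and Sfrp2 differed by 0.32 (SE 0.22, edgeR adjusted p = 0.244), and neither was called. The 6 mesendoderm markers summed to 333 to 482 CPM in Esrrb null and 53.8 to 77.4 CPM in floxed, with 3 and 2 of them at or above 1 CPM. The fibroblast sum was 9.07 to 11.8 CPM in null and 18.4 to 26.7 in floxed, the endoderm sum 6.96 to 8.82 and 2.49 to 4.34, the neural sum 66.5 to 69.0 and 77.6 to 85.3, and the trophoblast sum 28.2 to 35.7 and 19.2 to 30.9 CPM. Their part in these differences was not tested.

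**Figure D3:**
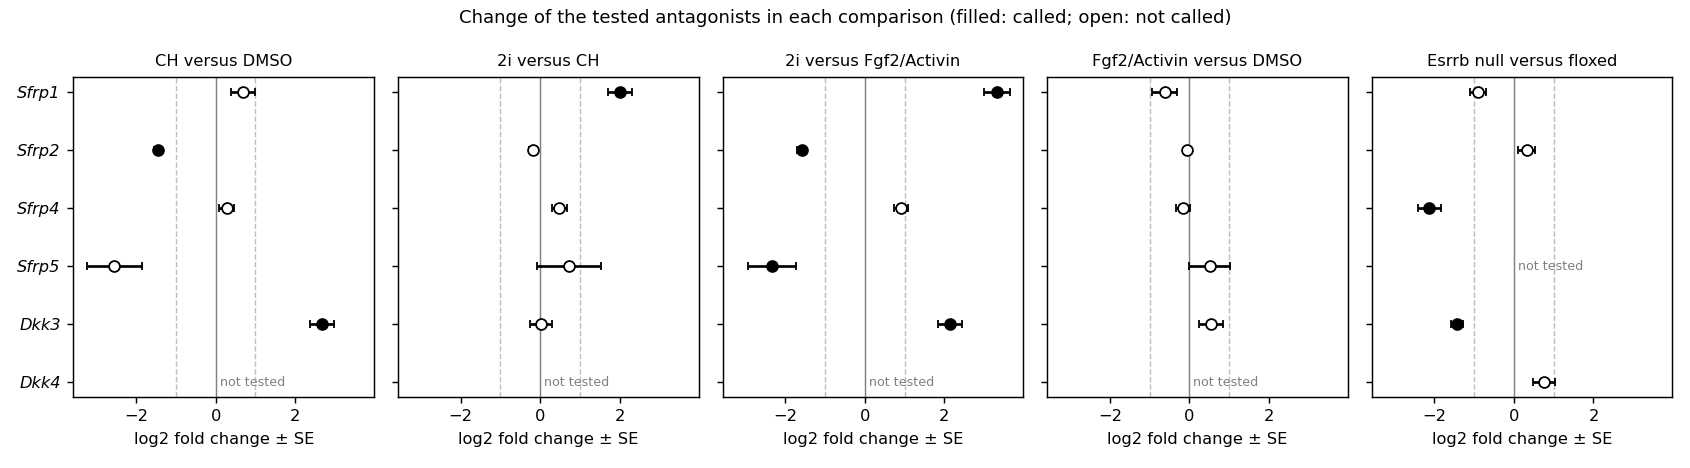
Log2 fold change (x axis) with its SE in the 5 comparisons for the members that entered a fit, filled where called and open where not, with dashed lines at -1 and 1. Sfrp2 lies at -1.45 and Dkk3 at 2.67 in CH versus DMSO, and Sfrp4 at -2.14 in Esrrb null versus floxed.

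**Figure D4:**
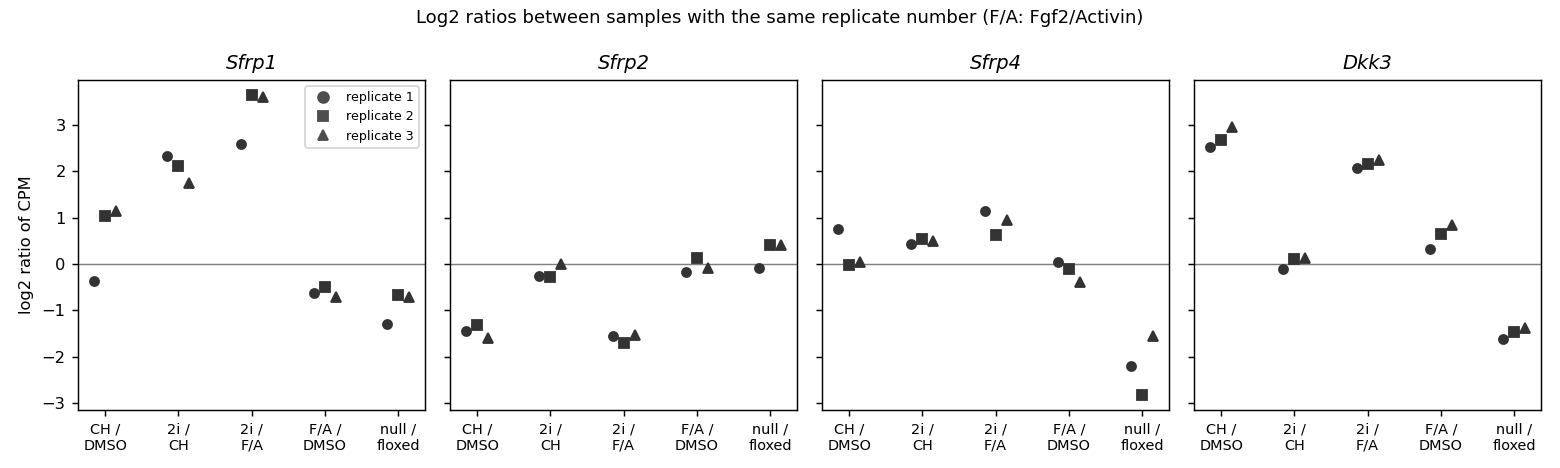
Log2 ratio of CPM between samples with the same replicate number for Sfrp1, Sfrp2, Sfrp4 and Dkk3 in the 5 comparisons, with a marker shape for each number. For Sfrp1 in CH over DMSO replicate 1 lies at -0.37 and the others at 1.04 and 1.14, while Dkk3 lies between 2.51 and 2.96 there.

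Sfrp2 followed the profile of Pcbp4 most closely over the 12 wild-type samples. Likeness was the root-mean-square difference of log2(CPM + 1) profiles, each centred on its own mean, and it is a description with no test. The difference was 0.0923 for Pcbp4, an RNA-binding protein gene (307 CPM in DMSO and 114 in CH), 0.111 for Terb2 and 0.124 for Fxyd5. The nearest profiles to Dkk3 were those of the galectin gene Lgals8 (0.164, with 2.88 CPM in DMSO and 20.7 in CH), Kctd6 (0.169) and the fibronectin gene Fn1 (0.173). Those nearest to Sfrp1 were further off: Dlgap1 (0.347), Fam81a (0.397) and the calsequestrin gene Casq2 (0.403). Sfrp4 was nearest to Tspyl1 (0.112), Slc13a5 (0.119) and Nt5c3b (0.122), and Sfrp5 to Nol4 (0.0834), Gm10762 (0.0871) and Prrxl1 (0.107). The profiles of Sfrp4 and Sfrp5 had an SD of 0.341 and 0.316 on that scale, against 1.29 for Sfrp1. The 1 CPM added before the log flattens genes counted low. Sfrp5 stayed below 1 CPM in every sample, while its edgeR estimate for CH versus DMSO was a 5.84-fold fall. Near profiles of genes at such levels need not have like fold changes.

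Around the antagonists, 82 other genes of the pathway were followed, from ligands to target genes. Those named had the largest called rise or fall of their group among those averaging 20 counts or more. In CH versus DMSO 17 of 72 tested were higher and 11 lower, where 7.51% of all genes tested were called higher and 10.2% lower. Among ligands, 4 of 13 were higher and 3 lower: Wnt3a was at 2.71 ± 0.770 CPM in CH and had at most 1 count in a DMSO sample, while Wnt4 fell by 2.99 on the log2 scale. Porcn, the acyltransferase needed for Wnt secretion, rose (3.96, SE 0.32, edgeR adjusted p = 3.52e-06). Of 17 receptor genes 2 were higher and 4 lower, with Fzd10 at 90.3 ± 13.6 CPM in CH and 1.95 ± 0.409 in DMSO, and Fzd2 at 14.8 ± 1.22 and 74.3 ± 9.49 CPM. Of 8 tested genes for other extracellular antagonists 3 were higher and 1 lower. The largest rise was that of Notum, which removes the lipid from Wnts (46.6 ± 7.30 against 0.993 ± 0.188 CPM). In the R-spondin axis, whose ligands keep Frizzled receptors at the surface, the ligand gene Rspo3 rose by 3.85 and Rspo1 fell by 3.86 on the log2 scale. Of 12 genes of the destruction complex and β-catenin none rose and 1, Apc2, fell (-2.14, SE 0.32, adjusted p = 0.000291). Of 11 common target genes 6 were higher and 1, Nkd2, was lower (-1.80, SE 0.42, adjusted p = 0.0054), and Cdx1 went from no counts in DMSO to 27.4 ± 7.41 CPM in CH.

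In 2i versus CH none of these 72 genes was called higher by edgeR and 7 were lower, where 0.317% and 1.67% of all genes tested were. The largest falls by group were those of Wnt3a (2.71 to 0.143 CPM), the target gene Cdx2 (63.7 ± 24.7 to 10.1 ± 2.83 CPM) and the antagonist Igfbp4 (5.78 ± 0.962 to 1.25 ± 0.250 CPM). In 2i versus Fgf2/Activin 17 were higher and 18 lower, where 9.13% and 14.4% of all genes were, including a rise of Notum (79.6 ± 6.73 against 1.81 ± 0.426 CPM) and a fall of Rspo1 (0.145 ± 0.0746 against 9.73 ± 0.282 CPM). In Fgf2/Activin versus DMSO 2 were higher and 1 lower, where 0.902% and 0.347% of all genes were: Lgr4, an R-spondin receptor (2.01, SE 0.11, edgeR adjusted p = 2.18e-06), and Fzd10 (2.13, SE 0.17) rose, and Ror1 fell (-2.39, SE 0.41, adjusted p = 0.00759).

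In Esrrb null versus floxed 33 of 71 tested pathway genes were higher and 2 lower, where calls over all genes also leaned to higher (12.8% higher and 3.87% lower). Of 13 ligand genes 10 were higher and none lower. Wnt6 went from 0.421 ± 0.144 to 25.3 ± 3.06 CPM and Wls, the Wnt cargo receptor, from 5.13 ± 1.82 to 41.5 ± 7.73 CPM. The 2 genes that fell were Gpc4 (-1.02, SE 0.09, edgeR adjusted p = 2.65e-05) and Fzd5 (-1.68, SE 0.15, edgeR adjusted p = 3.49e-05). Kremen2, a receptor for Dickkopf proteins, rose from 0.718 ± 0.159 to 11.6 ± 0.778 CPM. The other extracellular antagonist with the largest rise was Igfbp4 (5.10 ± 0.906 to 16.7 ± 0.561 CPM), in the comparison in which the secreted antagonists Sfrp4 and Dkk3 fell.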

How the data were processed

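The authors aligned the reads with TopHat2 to mm10 and counted them per gene with HTSeq without strand, per the labels and the study's methods. The deposited table holds raw counts for 49671 Ensembl identifiers in 18 samples, and 0 columns were left unassigned. Symbols, exons and positions came from GENCODE M21 (GRCm38), which matched 49326 identifiers, and promoters from RefSeq, where 5 of the 9 members matched (Sfrp2, Sfrp5, Frzb, Wif1, Dkk2; not Sfrp1, Sfrp4, Dkk3, Dkk4). Other genes shared at most 0.325% of the 50-base words of a member's longest transcript, except 12.9% between Sfrp2 and Gm26771.

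Counts were tested with edgeR 4.0.16 (R 4.3.3; TMM, filterByExpr, glmQLFit, glmQLFTest), the 12 wild-type samples in one fit and the 6 Esrrb samples in another. The SE is the log2 fold change divided by the root of F. DESeq2 1.42.0, other filters and scalings, a replicate block and leaving out each sample were alternatives. Same-numbered samples deviated together (r 0.37 to 0.82 over 18 wild-type pairs and 0.35 to 0.55 over 3 Esrrb pairs), so the blocked value is printed where it changes a call. Differently numbered pairs ranged from -0.78 to 0.71 in wild type and from -0.47 to 0.40 in the Esrrb line, with the pairs of numbers 2 and 3 positive and those with number 1 negative. No pair of replicates agreed within sampling noise. The study says in general that its experiments were repeated independently, but neither it nor the labels tie each library to a separate culture, so p-values measure the spread between these samples, which may be technical.

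The members and gene lists were chosen with earlier results of these data known. Named were all 9 members, Esrrb, the 3 genes nearest in profile to each member tested in wild type, and, per pathway group and comparison, genes with the largest called rise or fall among those with a mean of at least 20 counts. Pathway groups were given by their counts of calls, with a few of these genes named.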

Additional observations from a re-analysis of the deposited data

How the results depend on the processing

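For single antagonists, 5 values changed sign when a sample was left out, all of genes not called in that comparison: Dkk3 in 2i versus CH (-0.126 to 0.252, with -0.108 and -0.082 also below 0), Sfrp5 in 2i versus CH (-0.022 to 1.80) and Sfrp2 in Fgf2/Activin versus DMSO (-0.117 to 0.016, the value above 0 without DMSO replicate 1). Without replicate 1 in every group, an alternative chosen after seeing the data, Sfrp2 in Fgf2/Activin versus DMSO was 0.021, and the number of antagonists called was 4 in CH versus DMSO (Sfrp1 and Sfrp5 added) and 1, 4, 0 and 2 in the other comparisons, as reported. That fit has 2 samples a group. No called value changed sign. With a sample left out in turn, the number of antagonists called was 2 to 3 in CH versus DMSO, 0 to 1 in 2i versus CH, 3 to 4 in 2i versus Fgf2/Activin, 0 in Fgf2/Activin versus DMSO and 2 to 3 in Esrrb null versus floxed. In 2i versus CH the count was 0 with a DESeq2 test against a log2 fold change of 1 and 0 with only the 6 samples compared in the fit. In Esrrb null versus floxed it was 0 with that DESeq2 test and 1 with at least 10 counts required in every sample, a filter that removes Sfrp4 there and Sfrp5 in the wild-type fit. With the replicate number as a block, Sfrp5 was called in CH versus DMSO (-2.52, adjusted p = 0.00464), and the block changed no other call of an antagonist. The cause of the lost calls under other tests and fits was not tested. Over all genes, the calls in 2i versus CH were 326, against 672 with the block, 768 without replicate 1 in every group, 597 with DESeq2's test of no change, 100 with only the 6 samples compared and 84 with the DESeq2 test against a log2 fold change of 1. In the other comparisons that last test called 1187 genes instead of 2907 (CH versus DMSO), 1938 instead of 3857 (2i versus Fgf2/Activin), 77 instead of 205 (Fgf2/Activin versus DMSO, where leaving out replicate 1 in every group gave 499, the block 424, DESeq2's test of no change 374 and only the 6 samples 87) and 748 instead of 2485 (Esrrb null versus floxed). At least 10 counts in every sample left 1755 calls in CH versus DMSO and 2332 in 2i versus Fgf2/Activin, and dropping the fold minimum gave 4750 and 6193 there and 6621 in Esrrb null versus floxed. With a sample left out, 2i versus CH had 144 to 275 calls and Fgf2/Activin versus DMSO 112 to 171. Frzb, Wif1 and Dkk2 are limited by depth. Dkk4 in wild type rests on at most 28 counts a sample, and was called higher in CH than in DMSO with no filter on low counts, which brings the count there to 3.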
